A study of Rattus norvegicus with 9 samples.

Results

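The 9 genes described here act at successive steps of Wnt signalling: the ligands Wnt4 and Wnt16, the secreted antagonists Frzb and Wif1, the receptor Fzd2, the cytoplasmic inhibitors Nkd1 and Nkd2, and the nuclear effectors Tcf7l1 and Lef1. They were chosen by name, each through the gene ID that the study's own tables pair with its symbol, and they are 9 of the 26249 genes and gene-like units of the files. Those tables list genes that differ between NPCs and MSCs in the same RNA, so the values for that comparison are a description and not independent evidence of a direction.

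Wnt ligands are secreted lipid-modified proteins that bind Frizzled receptors and their co-receptors. In the canonical branch this stabilises beta-catenin, which enters the nucleus and acts with DNA-binding proteins of the TCF and LEF family, whereas secreted antagonists hold ligands away from receptors and Naked cuticle proteins bind Dishevelled inside the cell. In bone marrow stroma the pathway is known for its part in the choice between bone, cartilage and fat, and in neural progenitors for patterning and proliferation.

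The data were stranded mRNA-seq libraries of rat bone marrow mesenchymal stem cells (MSCs) and of neural progenitor-like cells (NPCs) induced from them, in 3 groups of 3 libraries. The MSC group held untreated cells at passage 3, grown from the marrow of 3 Sprague-Dawley rats of 4 weeks. The NPC group held such cells after 3 days in NeuroCult NS-A medium on ultra-low attachment plates with EGF and bFGF, each at 20 ng/ml. The third group had IGF-1 besides, over the same 3 days, and the sources used here do not give its dose. No library held cells in that medium without growth factors, so the growth factors, the medium and suspension culture cannot be told apart. The induced cells came from the same 3 rats by the study's methods, but no source ties a library number to a rat, so libraries were treated as independent and p-values measure the spread between them.

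The files imply 39.9 to 52.3 M fragments per library. Values are FPKM (fragments divided by transcript length and by library size), added over the isoforms of a gene, so that levels of different genes can be compared per length. The induced libraries listed 64618 to 90998 transcripts outside the annotation and the MSC libraries 28763 to 36570. Of 34 marker genes of cell types, 9 could be matched through the symbols in the study's tables. Vim, an intermediate filament of mesenchymal cells, was at 2560 to 3015 FPKM in MSCs and 629.5 to 879 in the 6 induced libraries. Ibsp, of osteoblasts, was at 0.248 to 0.402 FPKM in MSCs and 0 to 0.326 in induced cells. Sox9, of chondrocytes, was at 3.49 to 5.35 FPKM in MSCs and 2.29 to 9.39 in induced cells. Neither gene was called in any comparison. Adipoq, of adipocytes, was at most 0.0302 FPKM in any library. Of the 3 neural progenitor markers that were matched, Fabp7 was listed at 0 in all 9 libraries. Msi1 was at 0.212 to 0.719 FPKM with no call in any comparison. Nes was at 0.268 to 0.331 FPKM in induced cells and 0.0534 to 0.152 in MSCs. It was not called either, with log2 fold changes over MSCs of 0.90 without IGF-1 and 0.85 with it. In these RNA data the label of neural progenitor-like cells therefore rests on few markers. For this label the paper also reports Nestin and Sox2 protein and later differentiation into neuronal-like cells, which these data do not measure. Of the 7 blood markers 2 were matched: Ptprc was at or near 0 in every library, at most 0.0142 FPKM, while the lysosomal and macrophage gene Cd68 was at 8.93 to 14.4 FPKM in induced cells and 0.226 to 0.502 in MSCs. Of these blood markers Cd68 alone was thus higher in every induced library, and the part of this in the results below was not tested. In bulk RNA, fewer cells of a type and less RNA per cell cannot be told apart.

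The stretches upstream of Frzb, Nkd1 and Nkd2 are shown because Frzb had the strongest increase of the set and the Nkd pair are paralogues that both fell. Each is the 250 bases before the gene's start in RefSeq for the build GRCr8, written 5′ to 3′ on the strand of the gene, at chr3:85772097-85772346 (minus strand), chr19:34722847-34723096 (minus strand) and chr1:31272282-31272531 (plus strand). Capitals mark CTTTGA, a form of the TCF and LEF core motif, searched on both strands (as CTTTGA or TCAAAG, which cannot overlap at the same bases). Other forms of the motif were not searched, so an unmarked window can still hold them.
Frzb: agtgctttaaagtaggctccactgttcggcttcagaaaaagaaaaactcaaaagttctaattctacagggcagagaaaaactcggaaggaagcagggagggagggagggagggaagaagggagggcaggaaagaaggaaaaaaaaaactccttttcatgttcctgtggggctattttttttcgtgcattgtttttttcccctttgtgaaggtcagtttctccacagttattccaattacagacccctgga
Nkd1: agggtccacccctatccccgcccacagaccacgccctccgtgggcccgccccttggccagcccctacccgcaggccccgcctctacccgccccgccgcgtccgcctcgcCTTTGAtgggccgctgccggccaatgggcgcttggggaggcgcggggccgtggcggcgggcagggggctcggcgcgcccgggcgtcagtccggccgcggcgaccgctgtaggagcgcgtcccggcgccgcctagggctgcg
Nkd2: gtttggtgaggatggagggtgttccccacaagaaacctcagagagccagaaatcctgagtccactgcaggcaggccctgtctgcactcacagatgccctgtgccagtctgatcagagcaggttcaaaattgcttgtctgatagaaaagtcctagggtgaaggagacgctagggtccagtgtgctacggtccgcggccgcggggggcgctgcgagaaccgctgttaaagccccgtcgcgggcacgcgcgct
Promoters of 8 of the 9 genes were in the RefSeq table. The motif was found in 1 of the 8, that of Nkd1, where it begins 141 bases before the start and reads on the strand of the gene. Of all 33469 promoter windows of the same length, 13.9% hold it. GC content was 43.6% in the Frzb window, with 3 CpG pairs, against 80% and 36 pairs for Nkd1 and 59.6% and 15 pairs for Nkd2. The median GC content of all windows was 51.2%. A match of these letters is a description and not a binding site.

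Both ligands changed, in opposite directions. Wnt4 (ENSRNOG00000013166, chromosome 5, 159405834 to 159424674), a ligand known from kidney and gonad development that signals through more than one branch, was at 0.809, 0.925 and 0.709 FPKM in NPCs and 0.327, 0.250 and 0.312 FPKM in MSCs. With IGF-1 it was at 0.605, 1.15 and 1.25 FPKM. Every induced library lay above every MSC library. Tests were made on log2(FPKM + 0.1) after scaling by size factors, and a gene is called when its adjusted p is at most 0.05 and its log2 fold change at least 1 in size. The means were 0.814 ± 0.108 FPKM (SD, n = 3) in NPCs, 1.00 ± 0.346 with IGF-1 and 0.296 ± 0.0408 in MSCs, and the log2 fold change over MSCs was 1.15 (SE 0.25, limma adjusted p = 0.0108) without IGF-1 and 1.35 (SE 0.29, adjusted p = 0.00533) with it. These values rest on 14 to 22 fragments in an MSC library and 36.2 to 39.5 in an NPC library. With quantile normalisation the log2 fold change of NPCs over MSCs was 0.87, under the threshold of 1.

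Wnt16 (ENSRNOG00000005781, chromosome 4, 49160277 to 49170576), a ligand known in bone, was at 0.574, 0.506 and 0.589 FPKM in MSCs, on 37.6 to 43.4 fragments per library. NPC library 3 held 0.0133 FPKM, which is 1 fragment, and the other two NPC libraries list it at 0. IGF-1 library 1 held 0.0130 FPKM, again 1 fragment, and the other two of that group list it at 0. The MSC libraries therefore stood apart from all 6 induced libraries. Scaled by depth, the 120 fragments of MSCs against 1 of NPCs give a ratio of 109 (95% exact counting interval 19.2 to 4337). Against 1 with IGF-1 the ratio is 115 (20.2 to 4568). These intervals cover counting error only. Libraries listed at 0 were counted as holding no fragments, though such a listing can be a failed estimate. The fitted log2 fold changes of −2.68 (SE 0.26, adjusted p = 0.000329) and −2.70 (SE 0.23, adjusted p = 3.72e-05) depend on the 0.1 FPKM added before taking logs. Wnt16 passed the filter on low values only through the MSC libraries, so the lack of overlap followed from the filter.

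Frzb showed the largest change of the 9 genes. It encodes the secreted frizzled-related protein that is also called Sfrp3, which binds Wnts outside the cell and is known from cartilage. Frzb (ENSRNOG00000007765, chromosome 3, 74196166 to 74229331, with 7 annotated exons) was at 86.7, 133.2 and 58.6 FPKM in NPCs and 0.584, 0.552 and 0.328 FPKM in MSCs. With IGF-1 it was at 132.6, 172 and 215 FPKM. The induced and MSC libraries were far apart, and Frzb went from the sixth highest of the 9 genes in MSCs to the highest in both induced groups. The mean of 92.8 ± 37.7 FPKM (SD, n = 3) in NPCs was 190 times that of 0.488 ± 0.140 (SD, n = 3) in MSCs, and the mean of 173 ± 41.0 (SD, n = 3) with IGF-1 was 355 times it. The log2 fold changes were 7.20 (SE 0.29, adjusted p = 1.23e-05) and 8.13 (SE 0.29, adjusted p = 2.92e-07). The assembly divided the reads differently among libraries. In NPC library 3, 47.6 of the 58.6 FPKM were on an unannotated isoform of 7 exons and 2735 bases that ends 5 bases past the annotated end, and in MSC library 2 the annotated transcript was listed at 0 while an unannotated isoform of 2692 bases held all 0.552 FPKM.

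Wif1 (ENSRNOG00000004476, chromosome 7, 63077688 to 63147645), which encodes Wnt inhibitory factor 1, a secreted protein that binds Wnts directly, rose as well but from a similar start to a far lower level. It was at 1.69, 1.37 and 1.94 FPKM in NPCs, 2.04, 1.09 and 1.25 FPKM with IGF-1, and 0.468, 0.480 and 0.640 FPKM in MSCs. All induced libraries lay above all MSC libraries. The log2 fold change over MSCs was 1.42 (SE 0.28, adjusted p = 0.00713) in NPCs and 1.19 (SE 0.29, adjusted p = 0.011) with IGF-1. With IGF-1 the value was 0.94 without library 1 of that group and 0.90 with quantile normalisation, both under the threshold of 1.

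**Figure D1:**
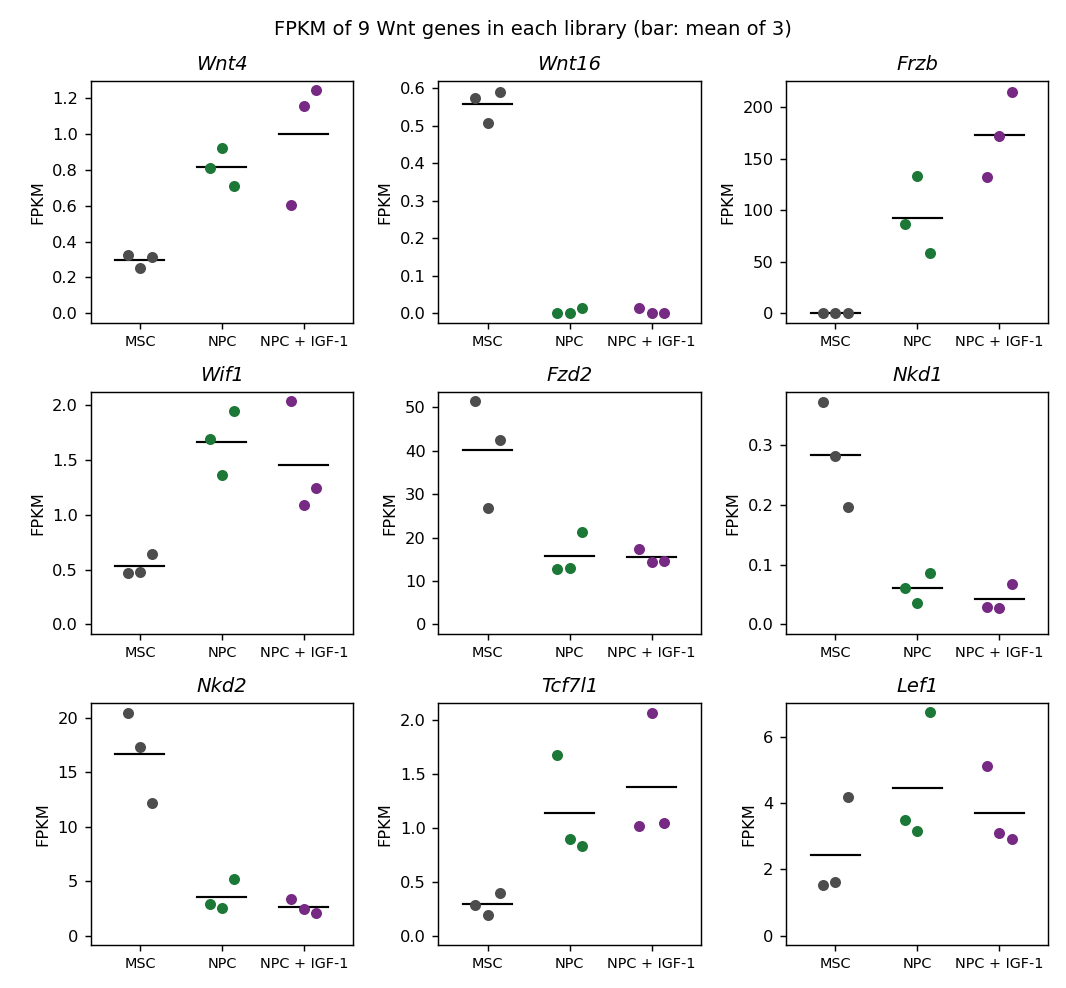
FPKM of each of the 9 genes (linear axes that differ between panels) in the 3 libraries of MSCs, NPCs and NPCs with IGF-1, left to right by library number, with a bar at the mean of 3 where no library is at 0. Frzb spans 0.328 to 215 FPKM, Wnt16 is at 0 to 0.0133 FPKM in induced cells, and Lef1 is the gene whose MSC and induced libraries overlap.

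The receptor and the cytoplasmic inhibitors fell. Fzd2 (ENSRNOG00000021962, chromosome 10, 90343133 to 90345043), which encodes Frizzled 2, a receptor of Wnts, was at 51.6, 26.8 and 42.5 FPKM in MSCs, the highest mean of the 9 genes there. It was at 12.7, 13.0 and 21.3 FPKM in NPCs and 17.4, 14.5 and 14.5 FPKM with IGF-1. The lowest MSC library lay above the highest induced library. The log2 fold change over MSCs was −1.41 in both induced groups (SE 0.32, adjusted p = 0.012 for NPCs, and SE 0.29, adjusted p = 0.00432 with IGF-1). Without NPC library 1 the adjusted p of NPCs against MSCs was 0.051. The annotated Fzd2 transcript is a single exon of 1911 bases, and isoforms ran 990 to 1509 bases past its end in MSC libraries 2 and 3 and in IGF-1 library 3. With the FPKM of each isoform weighted by its length over that of the annotated transcript, an alternative added after the data were seen, the MSC libraries held 34.0 to 51.6 FPKM.

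Nkd1 and Nkd2 encode the Naked cuticle homologues, which bind Dishevelled and dampen Wnt signals. Nkd2 (ENSRNOG00000016103, chromosome 1, 33482721 to 33509554) was at 20.4, 17.3 and 12.2 FPKM in MSCs, 2.90, 2.56 and 5.24 FPKM in NPCs and 3.38, 2.46 and 2.11 FPKM with IGF-1. The MSC libraries lay above all induced libraries by a wide margin. The mean was 4.66 times higher in MSCs than in NPCs and 6.28 times higher than with IGF-1, with log2 fold changes of −2.29 (SE 0.30, adjusted p = 0.00131) and −2.68 (SE 0.30, adjusted p = 0.000157). By mean FPKM Nkd2 thus ranked 2 of 9 in MSCs and 4 of 9 in both induced groups. Nkd1 (ENSRNOG00000014293, chromosome 19, 30466493 to 30539435) lay far lower, at 0.372, 0.282 and 0.197 FPKM in MSCs, 0.0603, 0.0363 and 0.0865 FPKM in NPCs and 0.0299, 0.0281 and 0.0677 FPKM with IGF-1. Its groups did not overlap either, and the values rest on 5 to 17 fragments in an induced library and 42.4 to 64.5 in an MSC library. The ratio of means was 4.65 for MSCs over NPCs, while the log2 fold changes of −1.27 (SE 0.28, adjusted p = 0.012) and −1.47 (SE 0.27, adjusted p = 0.00244) are shrunk by the added 0.1 FPKM. Nkd1, like Wnt16, passed the filter only through the MSC libraries, so its lack of overlap followed from the filter.

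Of the nuclear effectors, Tcf7l1 was called higher in both induced groups and Lef1 in neither. Tcf7l1 (ENSRNOG00000014753, chromosome 4, 165263183 to 165426980, with 12 annotated exons), which encodes a factor known to repress Wnt target genes, was at 1.67, 0.891 and 0.833 FPKM in NPCs, 1.01, 2.06 and 1.05 FPKM with IGF-1, and 0.285, 0.190 and 0.398 FPKM in MSCs. The lowest induced library lay above the highest MSC library. The log2 fold change was 1.57 (SE 0.37, adjusted p = 0.0148) for NPCs and 1.8 (SE 0.38, adjusted p = 0.00535) with IGF-1. The high values of NPC library 1 and IGF-1 library 2 came with 3 isoforms each, some of them partial. Weighted by length, the NPC libraries held 0.833 to 1.10 FPKM, those with IGF-1 0.907 to 1.18 and the MSC libraries 0.190 to 0.398. The call of Tcf7l1 was lost with annotated transcripts only, at a log2 fold change of 0.20 (adjusted p = 0.913) for NPCs and 1.14 (adjusted p = 0.435) with IGF-1, and with 1 FPKM added, at 0.68 and 0.82.

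Lef1 (ENSRNOG00000010121, chromosome 2, 254782387 to 254876426) encodes a factor that binds DNA with beta-catenin and is itself known as a Wnt target. It was at 3.50, 3.16 and 6.77 FPKM in NPCs, 5.13, 3.10 and 2.91 FPKM with IGF-1, and 1.53, 1.62 and 4.20 FPKM in MSCs. MSC library 3 lay among the induced libraries, and the groups overlapped. The log2 fold change of 0.85 (SE 0.49, adjusted p = 0.215) for NPCs did not pass, with a 95% interval that reaches from below 0 to above 1. That of 0.61 (SE 0.47, adjusted p = 0.335) with IGF-1 did not pass either. With the replicate number as a block, the 0.85 of NPCs passed on p (adjusted p = 0.0365) but not on size. The 0.61 with IGF-1 passed on neither there (adjusted p = 0.285). The study's tables list Lef1 among the genes that differ between NPCs and MSCs, by DESeq2 on counts and not by limma on FPKM. In MSC library 3, 2.81 of the 4.20 FPKM were on an unannotated isoform of 2 exons and 344 bases that 14.2 fragments support. With isoforms weighted by length the MSC libraries held 1.53 to 2.34 FPKM and the NPC libraries 3.16 to 5.98, and the log2 fold change of NPCs over MSCs was 1.04 (adjusted p = 0.0248, called). Without MSC library 3 it was 1.36 (adjusted p = 0.0384). With IGF-1, Lef1 was not called either way, at 0.63 (adjusted p = 0.0879) weighted and 1.12 (adjusted p = 0.0526) without that library. An isoform of Lef1 in each of NPC library 3, IGF-1 library 3 and MSC library 2 ended 16676 to 16697 bases past the annotated end.

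**Figure D2:**
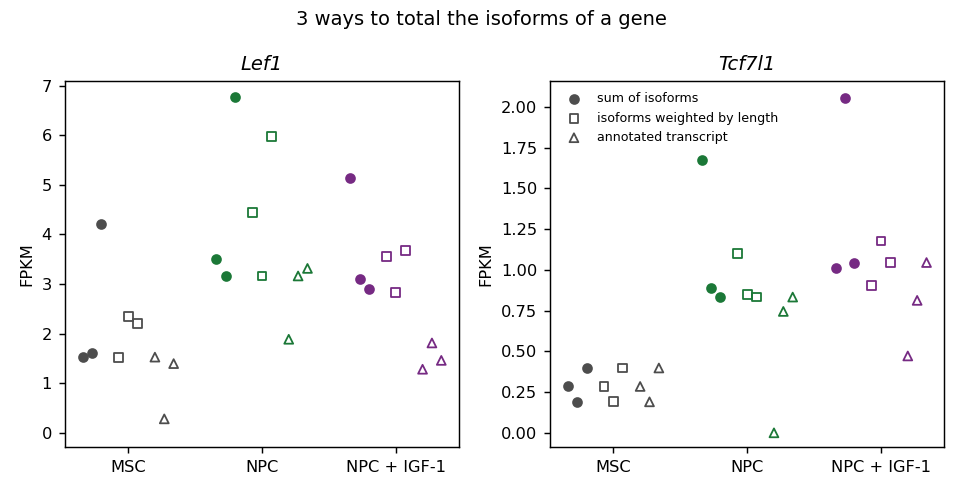
FPKM (linear axes) of Lef1 and Tcf7l1 in the 3 libraries of each group, as the plain sum of isoforms (filled circles), the sum weighted by isoform length (squares) and the annotated transcript alone (triangles). Weighting lowers Lef1 in MSC library 3 from 4.20 to 2.20 FPKM and Tcf7l1 in IGF-1 library 2 from 2.06 to 1.18 FPKM, and the annotated Tcf7l1 transcript is listed at 0 in NPC library 1.

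In counts, 4 of the 9 genes were higher and 4 lower in NPCs than in MSCs, where 11.7% of the 13696 genes tested were called higher and 9.89% lower, 21.6% in all. Nothing is read from that share, since the genes come from the study's table of that contrast. The libraries of NPCs and MSCs did not overlap for 8 of the 9, against 51% of all genes, and 8 had an unadjusted p under 0.05, against 46.1%. With IGF-1 the comparison shares the MSC libraries with the first. There, too, 4 were called higher and 4 lower, against 11.7% and 9.74% of 14228 genes (21.4% in all). The groups did not overlap for 8, against 55.3%, and 8 had an unadjusted p under 0.05, against 47.8%. The counts of both comparisons include Wnt16 and Nkd1, which passed the filter only through the MSC libraries. Their lack of overlap followed from the filter, and nothing is read from these counts. The median log2 fold change of the 9 was 0.85 in NPCs and 0.61 with IGF-1, beside 0.03 and 0.05 over all genes tested. With 4 genes called higher and 4 lower, this median is the value of Lef1, which was not called in either comparison. No shift of the set is read from it.

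**Figure D3:**
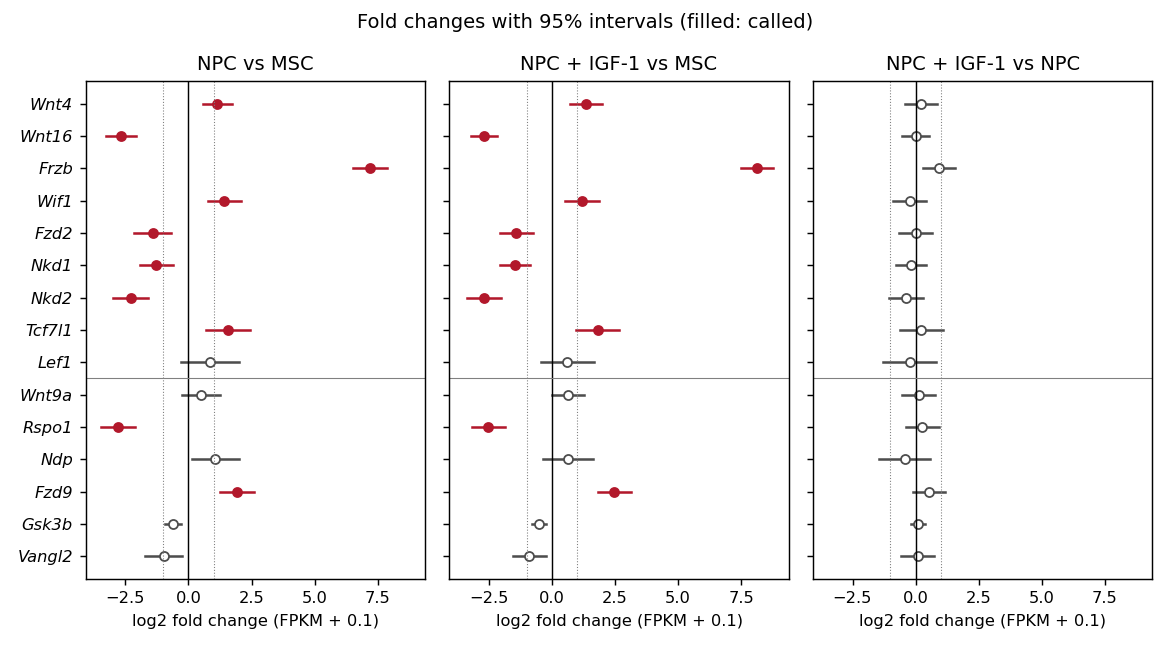
Log2 fold changes (on the FPKM + 0.1 scale) with 95% intervals for the 9 genes, above the line, and 6 other tested Wnt pathway genes, below it, in the 3 comparisons. Filled points passed both thresholds, dotted lines mark 1 and −1, and in the comparison of NPCs with and without IGF-1 no point is filled.

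IGF-1 was set against the induction without it directly, since a call against MSCs in both groups does not compare them. None of the 9 genes was called by limma, where 0.0211% of 14228 genes were (2 higher, 0.0141%, and 1 lower, 0.00703%) and 661 genes (4.65%) had an unadjusted p under 0.05. Of the 9, Frzb alone had an unadjusted p under 0.05, at 0.00928 (adjusted p = 0.959), with a log2 difference of 0.94 (95% interval 0.29 to 1.58) and means of 173 against 92.8 FPKM. After scaling by size factors its groups did not overlap, as for 9.64% of all genes. As deposited, NPC library 2 at 133.2 FPKM and IGF-1 library 1 at 132.6 FPKM crossed. For the other genes with fragments in both groups the interval of the difference included 0. It was −0.44 to 0.85 for Wnt4, −0.89 to 0.43 for Wif1, −0.64 to 0.65 for Fzd2, −1.06 to 0.28 for Nkd2 and −1.30 to 0.82 for Lef1. For Wnt16 both groups are at 1 fragment, and nothing is read from its fitted difference.

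Within the induced cells, NPC library 3 held the highest value of the 6 libraries for Fzd2, Nkd1, Nkd2 and Lef1 and the lowest for Frzb and Tcf7l1. For all of these but Lef1, that is the side on which the MSC libraries lie. Between the highest and the lowest induced library, Frzb differed 3.66 times, Nkd1 3.08 times, Nkd2 2.48 times and Fzd2 1.68 times. Without NPC library 3 the log2 fold change of NPCs over MSCs was 7.48 for Frzb, −2.61 for Nkd2 and 0.51 for Lef1.

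The patterns most like those of Frzb, Nkd2 and Lef1 were sought among 1306 named genes by Pearson correlation of log2 values over the 9 libraries. Named genes are those with a symbol in the study's tables, which include its table of genes that differ between NPCs and MSCs. The libraries share their groups, so the correlation mainly follows the group levels. Nearest to Frzb were Nr1h3 (r = 0.996), Evpl (r = 0.9959) and Mmp10 (r = 0.9955). Nearest to Nkd2 were Flnc (r = 0.9888), Pter (r = 0.988) and Cdc42ep3 (r = 0.9862). For Lef1 the nearest genes, Cilp2 (r = 0.9366), RT1-M3-1 (r = 0.8523) and Ubl3 (r = 0.8305), followed it less closely.

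Beyond the 9, a list of 104 Wnt pathway genes held 9 others that could be matched to the files, and 86 could not. A match needed a symbol in the study's tables, so an unmatched gene can still be in the files. Of the 9 others, 6 could be tested, and in both comparisons with MSCs 1 rose and 1 fell, beside 21.6% and 21.4% of all genes called in either direction. Rspo1, Sfrp1 and Vangl2 are in the study's table of genes that differ between NPCs and MSCs, so nothing is read from that share. Fzd9, another Frizzled receptor, was at 0.578, 0.381 and 0.357 FPKM in NPCs, 0.969, 0.580 and 0.538 FPKM with IGF-1 and 0.0585, 0.0355 and 0.0177 FPKM in MSCs, so that it lay higher in every induced library while Fzd2 lay lower. Fzd9 passed the filter on low values only through the induced libraries, so the lack of overlap between NPCs and MSCs followed from the filter. With IGF-1 it did not strictly follow, since the NPC libraries alone met the filter, and nothing is read from it. The means were 11.8 and 18.7 times those of MSCs, while the log2 fold changes of 1.93 (SE 0.28, adjusted p = 0.00215) and 2.47 (SE 0.29, adjusted p = 0.000219) are shrunk by the added 0.1 FPKM. With 1 FPKM added they were 0.46 and 0.69, under the threshold. Rspo1, a secreted protein that strengthens Wnt signals, was at 3.13, 2.44 and 3.84 FPKM in MSCs, 0.466, 0.308 and 0.386 FPKM in NPCs and 0.351, 0.598 and 0.543 FPKM with IGF-1. Its log2 fold changes were −2.78 (SE 0.29, adjusted p = 0.000516) and −2.52 (SE 0.29, adjusted p = 0.000195).

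The other pathway genes did not pass. Gsk3b, the kinase that marks beta-catenin for destruction, was at 11.7 ± 0.480 FPKM (SD, n = 3) in NPCs, 12.6 ± 1.24 with IGF-1 and 17.2 ± 2.52 in MSCs, with log2 differences of −0.61 and −0.52 that passed on p (adjusted p = 0.014 and 0.00964) but not on size. Vangl2, of the planar polarity branch, had −0.98 and −0.90 (adjusted p = 0.0451 and 0.0345), and passed only with quantile normalisation, at −1.23 and −1.24. It was at 0.142 to 0.264 FPKM in MSCs and 0.0277 to 0.0973 in induced libraries. Vangl2 thus passed the filter on low values only through the MSC libraries, and its values are a description. The ligand Wnt9a, the most abundant ligand matched, was at 2.56 ± 1.04, 2.69 ± 0.295 and 1.63 ± 0.311 FPKM (SD, n = 3) in NPCs, with IGF-1 and in MSCs. Ndp, the Frizzled ligand norrin, was at 0.293 ± 0.196, 0.190 ± 0.127 and 0.0773 ± 0.0552 FPKM in the same order. Sfrp1, a relative of Frzb, was not tested, with at most 0.256 FPKM in any library and a listing at 0 in 2 MSC libraries. Wnt3a was listed at 0 in all libraries, and Wnt9b was at or under 0.0281 FPKM.

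Reads outside the annotated exons differed at some of these loci. Within introns of Tcf7l1 and on its strand, the files list 40, 19 and 11 unannotated single-exon transcripts in NPCs, 37, 27 and 27 with IGF-1 and none in any MSC library. They were not counted in the FPKM of Tcf7l1. At Nkd2, which fell, there were 12, 8 and 18 in NPCs, 9, 3 and 3 with IGF-1, and 0, 3 and 1 in MSCs, so the NPC libraries lay above the MSC libraries and those with IGF-1 met them. Wnt16, Wif1 and Nkd1 had none in any library, and Fzd2 has no annotated intron. Within 3000 bases after the end of Nkd2, unannotated transcripts rested on 0 to 31 fragments in induced libraries and 32.9 to 81.8 in MSCs.

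**Figure D4:**
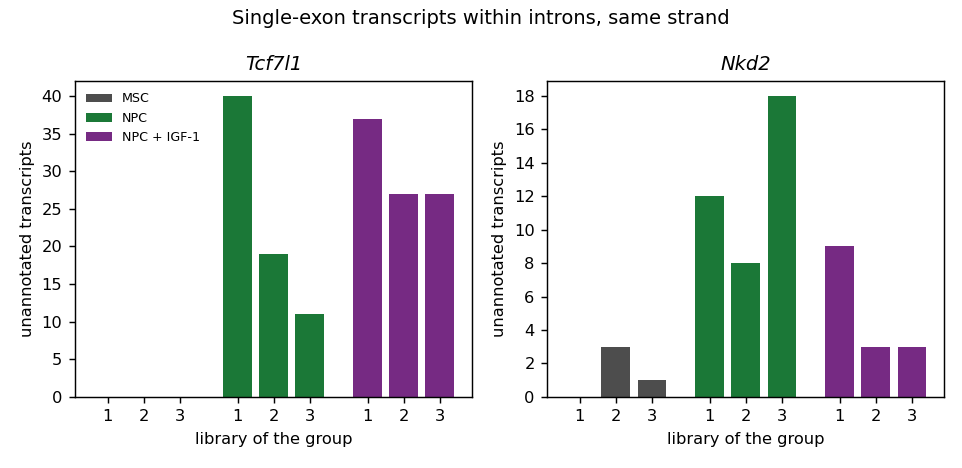
Number of unannotated single-exon transcripts within introns and on the strand of Tcf7l1 and Nkd2 in each library (bars, axes from 0). The Tcf7l1 bars are 11 to 40 in induced libraries and 0 in MSCs, while those of Nkd2 are 3 to 18 and 0 to 3.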

How the data were processed

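Stranded mRNA-seq libraries from 300 ng of total RNA were deposited as 1 transcript assembly each, for 3 groups of 3 libraries. TopHat, Bowtie2, Cufflinks, Cuffdiff, bcl2fastq and CASAVA 1.8 are named in the submitters' processing notes, while the study's methods describe an alignment with STAR. The build behind these files was not given in the sources used here, so coordinates are those of the files. The authors deposited FPKM per transcript on a linear scale, with no sign of scaling between libraries. The deposited score column was not used. Depth (39.9 to 52.3 M fragments) and the fragments behind a value were read from the widths of the deposited confidence intervals. An FPKM listed at 0 can be a failed estimate.

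FPKM of annotated and overlapping unannotated isoforms on the same strand were added per gene. Names came from the paper's supplementary tables, which name 2452 of the gene IDs in the files. Each library was scaled by its median-of-ratios size factor (0.875 to 1.04 over the 9 libraries), and limma 3.58.1 in R 4.3.3 was fitted to log2(FPKM + 0.1), with trend and robust options. Genes needed 0.1 FPKM in 3 libraries of the fit and a transcript of 300 bases. The added 0.1 understates changes of low genes. NPCs against MSCs used 6 libraries, and both comparisons with IGF-1 used 9. The thresholds were 0.05 for p after Benjamini-Hochberg adjustment and 1 for the size of the log2 fold change. All 9 genes passed the filter. The script was tested on simulated data. The named genes are the 9, pathway genes called in any comparison, the uncalled gene of highest FPKM in each role, and the 3 nearest patterns of Frzb, Nkd2 and Lef1. Other pathway genes were named after their values were seen. The 9 genes and all lists were chosen with earlier results of these data known. Alternatives were other pseudocounts, filters, scalings and isoform sums, other sets of libraries, the replicate number as a block, a fit without trend, and leaving out each library. Promoters were taken from RefSeq for GRCr8. Other steps used Python 3.11.15, numpy 2.4.6, scipy 1.17.1 and matplotlib 3.10.9.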

Additional observations from a re-analysis of the deposited data

Results flagged for a closer look

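Signals outside the summed exons were higher in every induced library than in every MSC library at Tcf7l1 and Wnt4. The induced libraries list more unannotated transcripts in all (64618 to 90998 against 28763 to 36570), and the part of this in both signals was not tested. In introns of Tcf7l1, unannotated single-exon transcripts on the strand of the gene rested on 147 to 739 fragments in the 6 induced libraries and on none in the MSC libraries. Within 3000 bases after the end of Wnt4, unannotated transcripts rested on 35.5 to 98.5 fragments in induced libraries and on 0 to 11.9 in MSCs, the same direction as the FPKM of Wnt4. After the end of Nkd2 the order was the opposite, with 0 to 31 fragments in induced libraries and 32.9 to 81.8 in MSCs.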

How the results depend on the processing

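Across these alternatives, the direction of all 9 genes against MSCs was kept wherever a gene could be fitted. With a pseudocount of 1, 1715 genes in all, 4 of the pathway list and 3 of the 9 genes (Frzb, Fzd2 and Nkd2) were called for NPCs against MSCs, and 1758, 4 and 3 with IGF-1. With annotated transcripts only, 1191, 5 and 3 were called for NPCs and 1499, 5 and 3 with IGF-1, where Frzb in MSC library 2, Nkd2 in NPC library 2 and Tcf7l1 in NPC library 1 are listed at 0. The calls of Wnt4 (1.25, adjusted p = 0.0738), Wif1 (1.4, adjusted p = 0.0823), Fzd2 (−0.83, adjusted p = 0.41), Nkd2 (−4.18, adjusted p = 0.111) and Tcf7l1 (0.20, adjusted p = 0.913) for NPCs were then lost, and those of the same genes with IGF-1. A filter at 1 FPKM left 5 of the 9 genes to test, with 4 called (5 of the pathway list), and 6 with 5 called (6 of the list) with IGF-1. The main counts were 2957, 10 and 8 for NPCs and 3044, 10 and 8 with IGF-1. Leaving out 1 library gave 2255 to 2860 genes, 8 to 9 of the list and 6 to 8 of the 9 for NPCs, and 2717 to 3063, 8 to 10 and 6 to 8 with IGF-1. Without any 1 MSC library, Wnt16, Nkd1 and Vangl2 fell under the filter. For IGF-1 against NPCs, 3 genes in all were called, 5 with no filter, 5 without trend, 19 with annotated transcripts only and 1 to 10 without 1 library (10 without IGF-1 library 1, 1 without IGF-1 library 3, 2 without IGF-1 library 2 or MSC library 1, 5 without NPC library 1 or 2 and 6 without NPC library 3), and none of the 9 in any of these. The cause was not tested. Uncalled differences changed sign there with annotated transcripts only (Wnt4 −0.34, Fzd2 −0.27, Nkd2 1.48, Gsk3b −0.45), where the main values were 0.21, 0.01, −0.39 and 0.09. Without 1 library, Fzd2 ranged from −0.13 to 0.27, Wnt9a from −0.0885 to 0.44, Vangl2 from −0.0748 to 0.24, Wnt16 (1 fragment a group, not read) from −0.0608 to 0.0579, Lef1 from −0.49 to 0.11 and Tcf7l1 from −0.0705 to 0.53. Without rescaling, the median log2 fold change of all genes with IGF-1 over MSCs was 0.13. Quantile normalisation turned the balance of calls, with 1269 higher and 1405 lower for NPCs against 1602 and 1355 as reported, and 1279 and 1432 with IGF-1 against 1658 and 1386. No source says that equal replicate numbers mark one rat, and deviations of same-numbered libraries from their group means correlated at −0.10 to 0.10, over 0.1 for 1 of 9 pairs. The replicate block called 1 gene for IGF-1 against NPCs and left the count of the 9 genes at 8 in both comparisons with MSCs, while Ndp became called for NPCs (1.06, adjusted p = 0.047), which took the list from 10 to 11. Values under 0.1 FPKM rest on few fragments, which limits Nkd1, Wnt16, Fzd9 and Vangl2.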
